A study of Homo sapiens with 4 samples.

Results

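The secreted antimicrobial and antiprotease proteins followed here are encoded by 10 genes, SLPI, PI3, LCN2, SAA1, SAA2, PTX3, DEFB1, CAMP, RNASE7 and LTF, out of 17185 named genes measured. They were chosen by symbol, through the RefSeq transcript accession that each probe set of the array carries. All 10 were found, on 11 probe sets of 3 probes each, out of 45033 probe sets in all. KYSE410, a long-established human cell line from an oesophageal squamous carcinoma, was kept for 24 h with one of 3 agents or with phosphate-buffered saline (PBS) as solvent control. The agents were the cytokines TNFα (tumour necrosis factor) and IL1β (interleukin 1β) and the bacterial endotoxin LPS (lipopolysaccharide). The stated purpose was to look for messenger RNAs that respond to inflammatory stimuli. All 4 cultures grew in the same RPMI medium with fetal bovine serum, penicillin and streptomycin, and no dose of any agent is stated in the labels. Each condition was measured on 1 single-colour array, so no value below has an error and no difference has a p-value.

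Epithelia of the mouth, oesophagus, airways and skin secrete such proteins as a chemical barrier. Some kill or starve microbes, by disrupting membranes, degrading RNA or sequestering iron, while others shield the tissue from the proteases that neutrophils release. Pentraxins and serum amyloid A belong to the acute phase response, and several of the genes are known targets of NF-κB, C/EBP or STAT3 signalling. LTF, CAMP and LCN2 are also stored in neutrophil granules.

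Values are the authors' RMA intensities on a linear scale (robust multi-array averaging, a summary over the probes of a set). Differences are on the log2 scale. A gene is called higher or lower at a difference of 2-fold or more between 2 arrays, provided its larger intensity reached a floor of 8.02 log2 units (an intensity of 260.5), the median over named genes. Near background means at most 2 times the random-sequence control set of that array, or 108 to 113 in intensity. Intensities of different probe sets depend on their probes, so levels are compared between arrays and not between genes. The LPS array stood apart, with Pearson correlations over genes of 0.924 to 0.929 with the other arrays, against 0.956 to 0.969 among those. Of 10 squamous epithelial markers 9 reached the floor with TNFα and 10 with IL1β, LPS and PBS, but E-cadherin, CDH1, had 232 with TNFα, 287 with IL1β and 284 with LPS, against 1209 with PBS, and was called lower on all 3 treated arrays. Of 9 general leukocyte markers 5 reached the floor with TNFα, 5 with IL1β, 1 with LPS and 3 with PBS. Their summed intensity was 8889, 13411, 1110 and 9234 in that order, of which LYZ, lysozyme, alone gave 5600, 10390, 209 and 6917. Against PBS, PTPRC and CD53 were called higher with TNFα and IL1β, and ITGB2 lower on all 3 treated arrays. LYZ and TYROBP were also called lower with LPS. Heart muscle markers, which an oesophageal line should lack, summed to 49655 with TNFα, 57921 with IL1β, 13788 with LPS and 37743 with PBS. Of the LPS sum 12945 came from ACTC1, cardiac actin, while the cardiac myosins MYH6 and MYH7 were near background there, at least 83.9-fold and 32.5-fold lower than with PBS, and TNNI3 (12.3-fold) and TNNT2 (11-fold), cardiac troponin subunits, were also lower there. The titles of the arrays name KYSE410 cells alone, and the source of the leukocyte and heart muscle signals was not tested. Fewer cells of a type and less RNA per cell cannot be told apart in such data. The part of other cell types in the values below was not tested either.

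The antiproteases SLPI and PI3 were higher with LPS alone, by 5.86-fold and 4.03-fold. The pentraxin PTX3 was higher on all 3 treated arrays, between 2.13-fold and 4.28-fold. LTF, lactoferrin, was higher with TNFα (2.37-fold) and IL1β (2.12-fold). By its brightest probe set neither SAA gene reached 2-fold against PBS, but both were lower with TNFα than with IL1β. LCN2, CAMP and RNASE7 stayed under 2-fold in each comparison with PBS, and DEFB1 was near background on all 4 arrays.

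**Figure D1:**
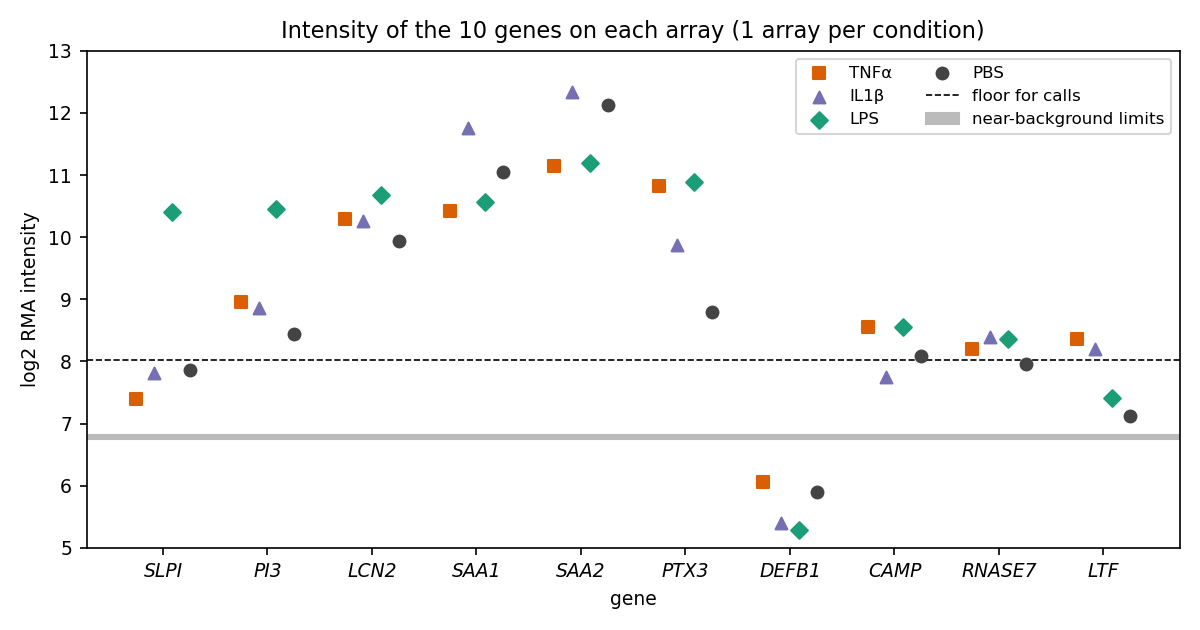
Log2 RMA intensity of the 10 genes (x axis), 1 point per array, with the arrays in the order TNFα, IL1β, LPS and PBS within each gene. The dashed line is the floor for calls (8.02) and the grey band the near-background limits. SLPI and PI3 stand clear of their other 3 points on the LPS array alone, and DEFB1 lies under the band throughout.

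SLPI, the secretory leukocyte protease inhibitor, blocks neutrophil elastase and cathepsin G and is itself antimicrobial. Its intensity was 169 with TNFα, 224 with IL1β and 1356 with LPS, against 232 with PBS. Only the LPS value reached the floor, and the other 3 lay below it but above background. The log2 difference from PBS was 2.55 with LPS, the 81st highest of 17185 genes, against -0.45 with TNFα and -0.05 with IL1β. Set directly against the cytokine arrays, SLPI was 8.02-fold higher with LPS than with TNFα and 6.05-fold higher than with IL1β. The difference thus did not rest on the PBS array alone, but all of these comparisons share the single LPS array.

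PI3, elafin, inhibits neutrophil elastase and proteinase 3 and is cross-linked into the epithelial surface by transglutaminases. Its intensity was 498 with TNFα, 462 with IL1β and 1401 with LPS, against 348 with PBS. All 4 values were above the floor, and again the LPS array alone was high. Its log2 difference from PBS was 2.01 with LPS, the 207th highest, beside 0.52 with TNFα and 0.41 with IL1β. PI3 was 2.81-fold higher with LPS than with TNFα and 3.03-fold higher than with IL1β.

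PI3 and SLPI both carry the WAP (whey acidic protein) fold and lie in one cluster on chromosome 20, with SEMG1 and SEMG2, which encode the seminal gel proteins, between them. The 5 measured genes on either side were looked at as well, a choice made after the values of the pair had been seen. Of the 12 other genes only SDC4, the cell surface proteoglycan syndecan 4, was called higher with LPS, at 1425 against 631 with PBS (2.26-fold). Over all genes 4.97% were called higher with LPS, so 12 genes cannot show whether the difference is confined to the pair. The WAP genes WFDC5 and WFDC12, next to PI3, had log2 differences of -0.92 and -0.22 with LPS. SEMG1 and SEMG2 were each near background on 3 of 4 arrays, LPS included, so their differences are not interpreted.

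**Figure D2:**
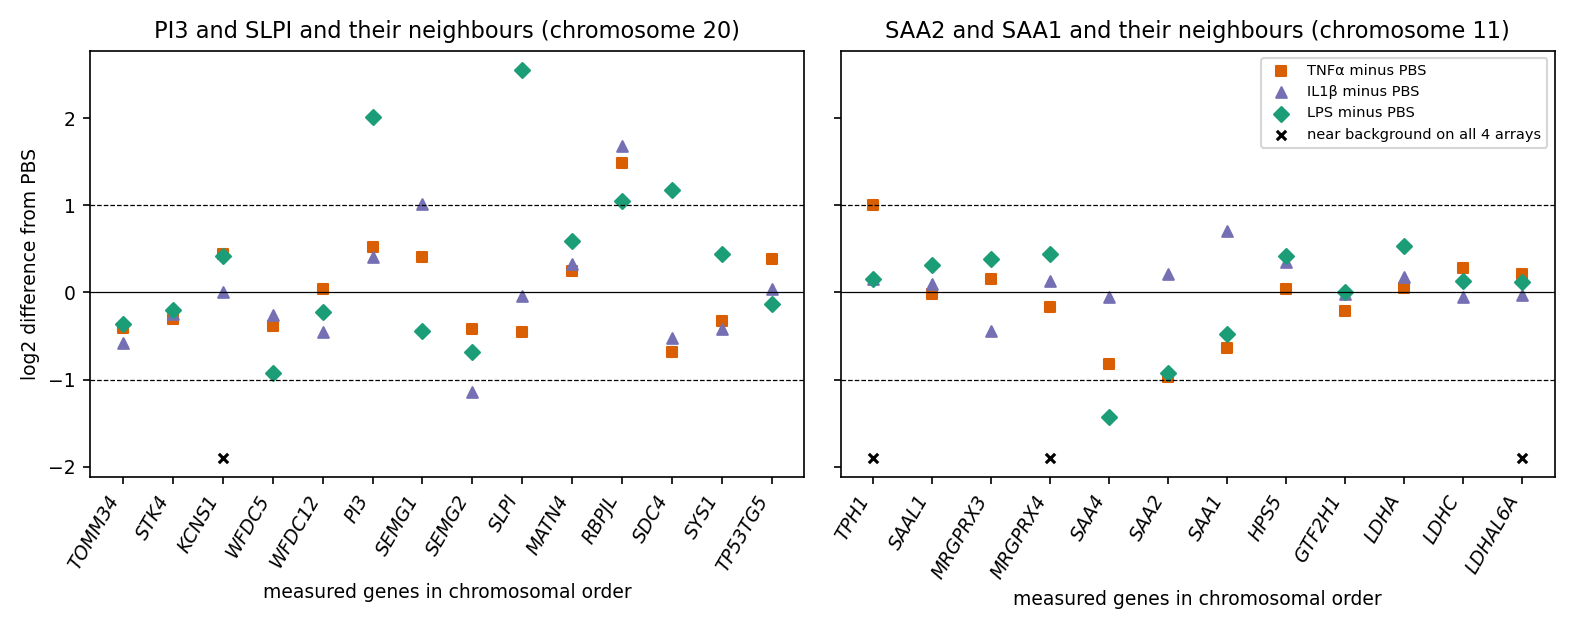
Log2 difference from PBS (y axis) for measured genes in chromosomal order (x axis, evenly spaced), around PI3 and SLPI on the left and around SAA2 and SAA1 on the right. Squares are TNFα, triangles IL1β and diamonds LPS, dashed lines mark 2-fold, and crosses mark genes near background on all 4 arrays. With LPS, PI3 (2.01) and SLPI (2.55) have the highest values in the panel, and SDC4 is at 1.18. SEMG1 and SEMG2, between them, are near background on 3 of 4 arrays.

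PTX3, the long pentraxin 3, is a soluble pattern recognition molecule that binds microbes and complement components and is made locally in inflamed tissue. Its promoter is shown because this was the only one of the 10 genes called on all 3 treated arrays, with those of LCN2 and LTF, which behaved differently, for comparison. The sequences are the 250 bases before the RefSeq start of each gene on GRCh38.p14, read 5′ to 3′ on the gene's strand. PTX3 lies at chr3:157436600-157436849, plus strand, LCN2 at chr9:128149203-128149452, plus strand, and LTF at chr3:46485235-46485484, minus strand. Capitals mark matches to 4 motifs searched on both strands: an NF-κB pattern GGGNNNNNCC, a C/EBP pattern TTGCNNAA, an AP-1 pattern TGANTCA and a STAT pattern TTCNNNGAA.
PTX3: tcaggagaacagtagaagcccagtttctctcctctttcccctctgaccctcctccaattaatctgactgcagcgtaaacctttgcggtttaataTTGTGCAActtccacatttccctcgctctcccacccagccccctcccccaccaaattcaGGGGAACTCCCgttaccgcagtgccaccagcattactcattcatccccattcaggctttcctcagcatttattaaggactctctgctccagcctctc
LCN2: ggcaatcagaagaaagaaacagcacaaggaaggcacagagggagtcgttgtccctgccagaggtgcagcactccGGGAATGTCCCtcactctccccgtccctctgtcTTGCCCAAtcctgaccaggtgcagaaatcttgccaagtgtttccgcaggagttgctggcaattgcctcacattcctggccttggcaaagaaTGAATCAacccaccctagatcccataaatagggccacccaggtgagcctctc
LTF: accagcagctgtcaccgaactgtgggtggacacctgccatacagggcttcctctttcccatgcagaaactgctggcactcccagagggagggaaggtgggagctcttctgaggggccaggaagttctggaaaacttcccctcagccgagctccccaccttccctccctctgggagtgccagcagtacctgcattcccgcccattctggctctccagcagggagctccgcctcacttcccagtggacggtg
The PTX3 window holds overlapping NF-κB matches between bases -97 and -87 and a C/EBP match from -156 to -149. The LCN2 window holds overlapping NF-κB matches between -176 and -166, a C/EBP match from -143 to -136 and an AP-1 match from -52 to -46. The LTF window matched none of the 4 patterns. Whether the transcripts measured on the array begin at these gene starts was not examined, so a window may not be the promoter in use. Over 27303 RefSeq promoters of the same length, 53.7% held the NF-κB pattern, 9.13% the C/EBP, 6.6% the AP-1 and 6.78% the STAT pattern. The loose NF-κB pattern is thus present in more promoters than not. Sequences were matched for 5 of the 10 genes. Of those not shown, RNASE7 held a C/EBP match from -181 to -174 and an AP-1 match from -102 to -96, and CAMP matched none of the 4 patterns. Neither gene was called against PBS.

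PTX3 had an intensity of 1811 with TNFα, 942 with IL1β and 1898 with LPS, against 443 with PBS. All 3 treated arrays were above the PBS array, with TNFα and LPS nearly level and IL1β between them and PBS. The log2 differences from PBS were 2.03 with TNFα, the 76th highest of all genes, 1.09 with IL1β and 2.10 with LPS, the 179th highest. These comparisons share the single PBS array, and 83 genes (0.483%) were called higher in all 3. Between stimuli, PTX3 was 2.01-fold higher with LPS than with IL1β, a log2 difference of 1.01 whose call ended with loess centring of the pair (0.88), repeated quantile normalization (0.97), the offset (0.97) and the 3-fold threshold. With TNFα it was 1.92-fold higher than with IL1β, under the size rule.

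SAA1 and SAA2, the serum amyloid A proteins of the acute phase, are carried on high-density lipoprotein and are made by liver and inflamed epithelia. They are near-identical paralogs that neighbour each other on chromosome 11. The probe sequences were not used here, so signal from one transcript on the other's probes cannot be told apart from its own. SAA2 had an intensity of 2275 with TNFα, 5161 with IL1β and 2341 with LPS, against 4459 with PBS. IL1β and PBS were the higher pair, TNFα and LPS the lower. The log2 difference from PBS was -0.97 with TNFα and -0.93 with LPS, both just short of 2-fold, and 0.21 with IL1β. SAA1 on its brighter probe set had 1364 with TNFα, 3463 with IL1β and 1523 with LPS, against 2119 with PBS, giving log2 differences of -0.64, 0.71 and -0.48. The second SAA1 probe set had 412 with TNFα, 875 with IL1β and 810 with LPS, against 828 with PBS. It was 2.01-fold lower with TNFα and within 1.06-fold of PBS with the other agents.

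On every one of the 3 SAA probe sets the value with TNFα was at least 2-fold below that with IL1β. SAA2 differed by -1.18 on the log2 scale, and the SAA1 sets by -1.34 and -1.09. The brighter SAA1 set was the 170th lowest of all genes in that comparison. LPS against IL1β was less uniform. SAA2 (-1.14) and the brighter SAA1 set (-1.18) were lower with LPS, while the second SAA1 set differed by -0.11, and the mean of the sets (-0.65) ended the SAA1 call. Over 622 genes with a second probe set at the floor, the differences given by 2 sets of a gene disagreed with an SD of 0.46 for TNFα minus IL1β and 0.74 for LPS minus IL1β. Of the 10 neighbours measured none was called against PBS. Over all genes no more than 4.97% were called higher, or lower, in any comparison with PBS, so a count of none is near that share. SAA4, the constitutive member of the family, was near background on 3 of 4 arrays.

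LCN2, lipocalin 2, withholds iron by binding bacterial siderophores. Its intensity was 1259 with TNFα, 1224 with IL1β and 1641 with LPS, against 979 with PBS. The treated arrays were all above PBS, with LPS the highest. No difference reached 2-fold, the log2 values being 0.36 with TNFα, 0.32 with IL1β and 0.75 with LPS. NFKBIZ, the nuclear IκB protein that NF-κB needs at the LCN2 promoter, was near background on 3 arrays and at 167 with LPS, under the floor.

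LTF, lactoferrin, binds iron in exocrine secretions and neutrophil granules. Its intensity was 330 with TNFα and 295 with IL1β, both above the floor, 171 with LPS, and 139 with PBS. TNFα and IL1β were alike (log2 difference between them 0.16) and LPS was close to PBS (0.30). The differences from PBS were 1.24 with TNFα and 1.08 with IL1β. Both calls ended with the floor at the 75th percentile and with the 3-fold threshold. The IL1β call also ended with the offset (0.86). Of 14 markers of neutrophils and their precursors, 3 were called higher with TNFα, 2 with IL1β and 1 with LPS, and none lower. Over all genes 1.84%, 1.72% and 4.97% were called higher and 1.86%, 1.96% and 4.18% lower. The count with LPS is near the share of all genes. The 14 markers had medians of 0.28, 0.21 and -0.29. Their summed intensity was 4685 with TNFα, 4059 with IL1β and 2182 with LPS, against 2279 with PBS, with FCGR3B alone giving 1649 of the sum with TNFα and 55.2 of that with PBS. Called higher were FCGR3B, the neutrophil Fc receptor (at least 15.2-fold with TNFα and 8.55-fold with IL1β), PGLYRP1, a granule protein that binds peptidoglycan (4.27-fold and 6.23-fold, and 3.20-fold with LPS), and CD177 with TNFα (2.28-fold). Among the others MPO, CEACAM8 and BPI were near background on all 4 arrays. The granule proteases CTSG and PRTN3 and the defensin DEFA4 were above background on all 4 and called neither against PBS, CTSG with 456 with TNFα, 495 with IL1β and 354 with LPS, against 544 with PBS. The part of such cells in the LTF values was not tested.

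CAMP, the cathelicidin precursor, yields a membrane-disrupting peptide and is a known target of the vitamin D receptor. Its intensity was 375 with TNFα, 216 with IL1β and 375 with LPS, against 271 with PBS. TNFα and LPS were level and IL1β was the lowest, and each log2 difference from PBS stayed between -0.33 and 0.47. RNASE7, a ribonuclease of stratified epithelia with antibacterial action, had 295 with TNFα, 335 with IL1β and 328 with LPS, against 248 with PBS. The 4 arrays lay within 0.44 log2 units, the narrowest range of the 10 genes, with all treated values above PBS. DEFB1, the constitutive epithelial β-defensin, had 66.3 with TNFα, 42.3 with IL1β and 39.0 with LPS, against 59.4 with PBS. Those values were between 0.69 and 1.19 times the control set, so no fold is given.

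**Figure D3:**
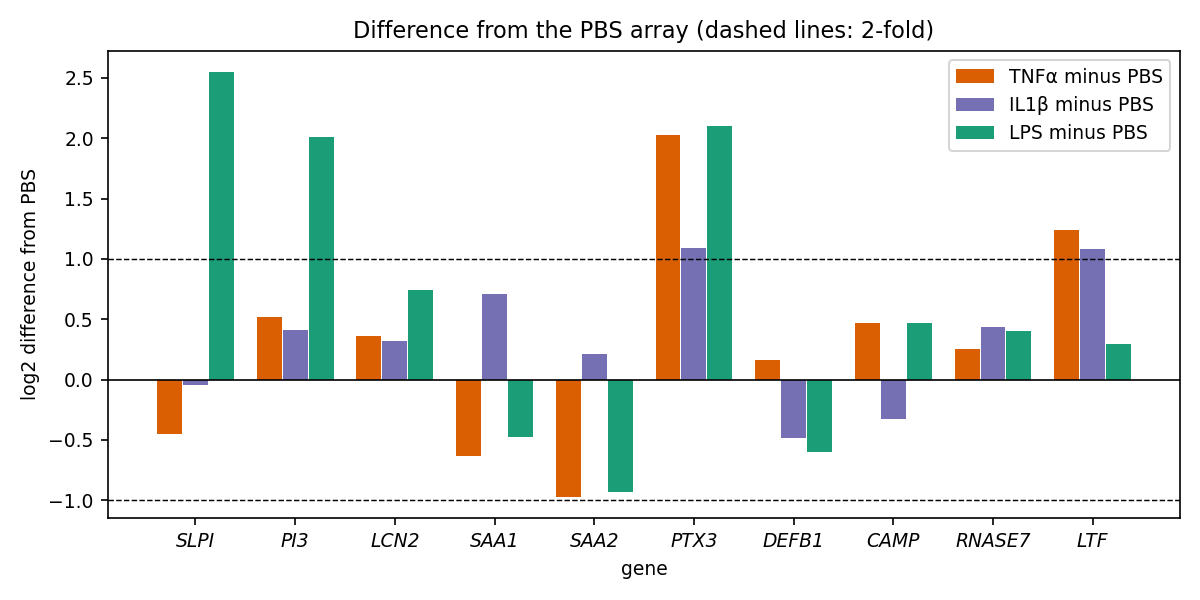
Log2 difference from PBS (y axis) of the 10 genes (x axis), 1 bar per treated array, with dashed lines at 2-fold. PTX3 passes 2-fold on all 3 arrays, SLPI and PI3 with LPS, and LTF with TNFα and IL1β. The DEFB1 bars come from values near background.

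Counted together, 2 of 10 genes were called higher with TNFα (PTX3 and LTF), where 1.84% of all 17185 genes were, and none lower (1.86% of all genes). With IL1β the same 2 were called higher (1.72% of all genes) and none lower (1.96%). With LPS 3 were higher, SLPI, PI3 and PTX3 (4.97%), and none lower (4.18%). The median log2 difference over the 10 genes was 0.31 with TNFα, 0.37 with IL1β and 0.44 with LPS, beside -0.03, -0.03 and 0.02 over all genes. In direct comparisons 2 were higher with LPS than with TNFα (5.58% of all genes) and none lower (3.99%). Against IL1β, 3 were higher (5.96%) and 2 lower (4.21%) with LPS. With TNFα none was higher than with IL1β (1.01%) and 2 were lower (0.937%), SAA1 and SAA2. The same pair was lower with LPS than with IL1β. Their probes may share signal, which was not examined, so the 2 genes may not be separate counts. The 10 genes were chosen with earlier results of these arrays known, so the counts describe them only.

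**Figure D4:**
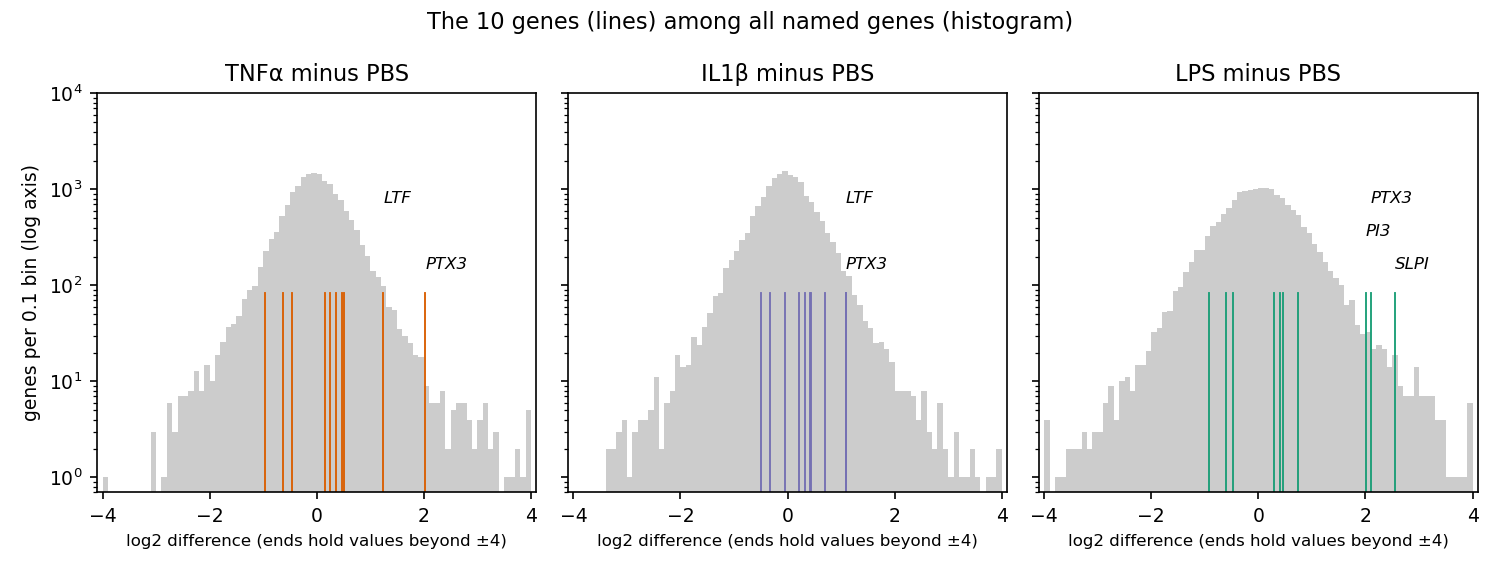
Histograms of the log2 difference from PBS over 17185 genes (y axis, genes per bin on a log scale), 1 panel per treated array, with the 10 genes as vertical lines. Genes at or beyond 2-fold are named. SLPI lies in the upper tail with LPS (81st highest) and PTX3 with TNFα (76th highest).

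For each gene called against PBS, the 3 genes with the most similar profile were found by the root mean square (RMS) difference of centred log2 values over the 4 arrays, among 10270 other genes at the floor on at least 1 array. SLPI was closest to VWA5A (RMS 0.06), the kallikrein protease KLK10 (0.07) and NCOA7 (0.07), all of which reached the floor with LPS alone and were near background on the other 3 arrays, so that the RMS rests partly on background values. PI3 was closest to KIRREL2 (0.02) and EPM2A (0.05), both at the floor with LPS alone and near background with PBS and IL1β, and to the mucosal keratin KRT4 (0.06). PTX3 was closest to LY9 (0.09), the repressor BCL6 (0.15) and N-cadherin, CDH2 (0.19). LTF was closest to KRTAP12-1 (0.04), PHLDA3 (0.05) and MYOG (0.06). SLPI and PI3 lay 0.56 apart.

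Other genes of the same functions were described from lists. Their counts are to be read against the shares of all genes called, which were 1.84% higher and 1.86% lower with TNFα, 1.72% and 1.96% with IL1β, and 4.97% and 4.18% with LPS. Of 14 further WAP domain genes, WFDC13 was higher with LPS (2.61-fold), WFDC10A higher (2.67-fold) and WFDC8 lower (2.09-fold) with TNFα, and none was called with IL1β. WFDC2, singled out after its values were seen, had 94.0 with TNFα, 94.9 with IL1β and 258 with LPS, against 43.4 with PBS, and the LPS value fell just under the floor. The medians of this list were 0.19, 0.00 and 0.01 with TNFα, IL1β and LPS.

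Other epithelial protease inhibitors were called with LPS alone, 6 of 24 being higher and none lower, at a median of 0.33, where 4.97% of all genes were called higher. With TNFα and IL1β, fewer genes were called overall (1.84% and 1.72% higher). Among the 6 higher with LPS were the cysteine protease inhibitors CSTA (4.33-fold) and CSTB (2.23-fold) and the kallikrein inhibitor SPINK5 (3.64-fold). The rest of the 6 were the serpins SERPINB13 (at least 3.81-fold), SERPINB6 (2.12-fold) and SERPINB1 (2.08-fold), the last an inhibitor of neutrophil elastase. CSTA had 1928 with TNFα, 1564 with IL1β and 6002 with LPS, against 1386 with PBS. Of the 10 squamous markers, KRT14 (2.38-fold), KRT17 (2.12-fold) and TP63 (2.79-fold) were higher on the same array, CDH1 was 4.26-fold lower and 6 were neither, and the part of such differences in the inhibitor values was not tested. The medians of the inhibitor list with TNFα and IL1β were -0.03 and -0.14. SERPINB3 and SERPINB4, the squamous cell carcinoma antigens, were near background on all 4 arrays.

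Among 21 serine proteases of neutrophils, kallikreins and membrane types, the median with LPS was -0.62, beside 0.02 over all genes. On the LPS array 10 of the 21 were near background, so this median rests partly on background values. KLK10 was at least 5.21-fold higher with LPS, while trypsinogen PRSS3 (at least 4-fold) and KLK6 (3.81-fold) were lower. The second KLK6 probe set was lower with LPS too (log2 difference -2.74), and also with TNFα (-1.09) and IL1β (-1.08). There the brighter KLK6 set differed by -0.06 and -0.59. TMPRSS2 was lower with TNFα (at least 3.44-fold) and with IL1β (at least 3.42-fold), as was CMA1, mast cell chymase, with IL1β (2.09-fold). ELANE, the neutrophil elastase that SLPI and PI3 inhibit, had 128 with TNFα, 94.1 with IL1β and 35.3 with LPS, against 97.7 with PBS, near background on 3 arrays.

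Of 34 other antimicrobial genes measured, 4 were higher and 1 lower with TNFα, 3 and 1 with IL1β, and 2 and 2 with LPS, the last near the shares of all genes (4.97% and 4.18%). The alarmins S100A8 (at least 50.3-fold with TNFα and 16.5-fold with IL1β) and S100A9 (10.2-fold and 5.51-fold) were higher with the cytokines, as was S100A12 with TNFα (at least 15.4-fold). All 3 are also abundant in myeloid cells, and the counts of neutrophil markers on these arrays are those given with LTF. With LPS, ADM, adrenomedullin, was 2.57-fold higher, while LYZ, lysozyme, had 209 against 6917 with PBS, 33.1-fold lower. The inducible β-defensin DEFB4A and psoriasin, S100A7, were near background on all 4 arrays. Of 20 other acute phase genes only complement C3 was called against PBS, with LPS (4.49-fold higher), a count near the 4.97% of all genes. Between stimuli, C3 (-1.29) and CFB (-1.64) were lower with TNFα than with IL1β, where 0.937% of all genes were. CP was lower with LPS than with IL1β (-1.26, beside 4.21% of all genes). C3 was higher with LPS than with TNFα or IL1β (5.58% and 5.96% of all genes). CRP was near background on 3 of 4 arrays.

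Among 25 regulators of these genes, HIF1A, the hypoxia-inducible factor subunit, was higher on all 3 treated arrays by its brighter probe set (5.24-fold, 3.49-fold and 6.56-fold with TNFα, IL1β and LPS), while its other set differed from PBS by -0.06, 0.07 and 0.13 log2 units. CEBPD, a C/EBP factor of acute phase genes, was 8.67-fold higher with LPS and 2.16-fold with TNFα. CEBPB was 3.24-fold higher with LPS, at 1075 against 332 with PBS, while the NF-κB subunit RELA was 2.41-fold lower and the IL6 receptor subunit IL6ST 2.05-fold lower. Of 22 receptors and partners of the secreted proteins, TLR4, the LPS receptor, was called with TNFα (at least 3.82-fold higher) by 1 of its 3 probe sets, the others differing by 0.24 and 0.01 log2 units near background, and no gene was called with IL1β or LPS. TNFAIP6, which binds PTX3 in the extracellular matrix, was near background on all 4 arrays.

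**Figure D5:**
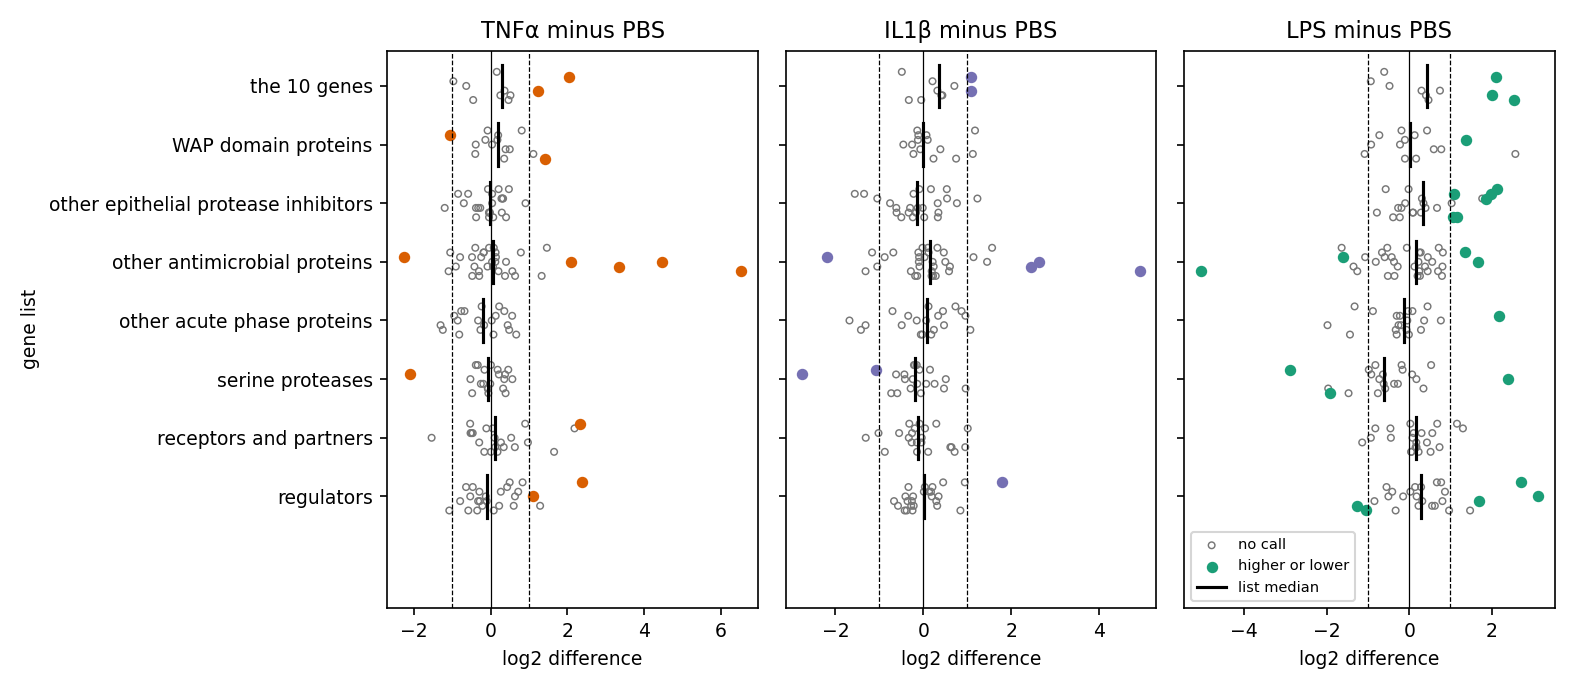
Log2 difference from PBS (x axis) of each measured gene by list (y axis), 1 panel per treated array. Filled points are genes called higher or lower, open points are the rest, short vertical lines are list medians and dashed lines mark 2-fold. With LPS 6 of the 24 other protease inhibitors lie to the right as filled points, beside SLPI, PI3 and PTX3 in the top row.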

How the data were processed

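Total RNA of KYSE410 cells was copied to cDNA, labelled with Cy3 and hybridised to NimbleGen arrays, as the labels' protocols state. Each deposited intensity is the authors' RMA summary of a probe set, not logged, per the file headers; no source used here names the software or its settings. The series value table held identical intensities for 45033 probe sets. RMA usually equalises array distributions, so a shift shared by most genes would not be seen. Accessions matched 1 symbol of the RefSeq table (GRCh38.p14) for 18866 probe sets (41.9%), or 17185 genes; a gene took its probe set of highest mean log2 intensity. No test was possible with 1 array per condition. Simulated data with known changes were used to check the calling of genes by size. Their spread was taken from TNFα minus IL1β, so the check does not cover the wider LPS comparisons. The SD of the differences over all genes was 0.50 for TNFα minus IL1β and 0.76 for LPS minus PBS. Members and lists were chosen with earlier results of these data known. Named were all 10 members, up to 4 called genes per list and comparison (all where 5 or fewer), markers, and the 3 most similar profiles. An exception was the list of other protease inhibitors, where all 6 genes called with LPS were named. Further names are said to be chosen after their values were seen or are genes of stated biological interest. Motifs and neighbours were also chosen after seeing the data. Hepatocyte markers had at most 2 of 8 at the floor, and fibroblast markers at most 2 of 6. Alternatives were the floor, probe set averaging, loess (span 0.3), repeated quantile normalization, the series table, an offset of 50.9, and thresholds of 1.5-fold and 3-fold. The work used pandas 2.3.3, numpy 2.4.6, matplotlib 3.10.9 and statsmodels 0.14.6 under Python 3.11.15.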

Additional observations from a re-analysis of the deposited data

How the results depend on the processing

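With 1 array per condition no replicate could be left out, and the difference between 2 arrays has no error. No paired analysis was possible because each condition has 1 sample. With the series value table, no floor, loess centring or repeated quantile normalization, the counts of called genes stayed within 1.5 times those reported. The floor at the 75th percentile left 1 higher gene with TNFα and 1 with IL1β against PBS, since LTF is below it, and the offset left 1 with IL1β. The mean of all probe sets left 1 lower gene for LPS against IL1β. At 1.5-fold, 2 genes were lower with TNFα and 1 with LPS than with PBS, 1 lower with LPS than with TNFα, and 2 higher with TNFα than with IL1β. At 3-fold, 1 gene was higher with TNFα and 0 with IL1β than with PBS, 1 higher with LPS than with TNFα, 0 lower with LPS than with IL1β, and 0 lower with TNFα than with IL1β. No called difference of the 10 genes changed sign under any of these settings. SLPI and PI3 with LPS against PBS were called under all of them, as was PTX3 with TNFα and with LPS against PBS.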

Other observations

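Of 4 peptidoglycan recognition proteins measured, PGLYRP1 was higher and PGLYRP2 lower on all 3 treated arrays, PGLYRP3 was near background on all 4 arrays and PGLYRP4 was called in no comparison. PGLYRP1 had 718 with TNFα, 1047 with IL1β and 537 with LPS, against 168 with PBS. PGLYRP2, an amidase that cleaves peptidoglycan, had 195 with TNFα, 203 with IL1β and 305 with LPS, against 929 with PBS, and was 4.77-fold, 4.57-fold and 3.04-fold lower. All these differences share the single PBS array. The transglutaminase TGM1, which builds the cornified envelope, had 860 with TNFα, 956 with IL1β and 526 with LPS, against 929 with PBS, and TGM2 had 231, 227 and 409 against 332, so neither reached 2-fold.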
